A study of Mus musculus with 4 samples.

Results

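The synaptic vesicle release machinery was taken as 75 genes, found by symbol alone: synaptotagmins, syntaxins and Snap proteins, Vamp proteins, syntaxin-binding proteins, complexins, Unc13 proteins, Rims, Bsn, Pclo, Rab3 proteins, SV2 proteins, synapsins, Syp and Synpr. All 75 had at least 1 probeset and belong to the 18010 genes with a probeset. Expression was measured on 4 exon arrays of dentate gyrus dissected from the hippocampus of 8-week-old wild-type C57/Black6 male mice. The first group had received electroconvulsive stimulation (ECS, a seizure-inducing current given as a train of 1.0 s with pulses of 0.3 ms at 100 Hz and 18 mA) and was sampled 4 h later. The second group was sampled 4 h after sham. Each group had 2 arrays, called A and B after the column names of the authors' table. Per the labels the arrays are biological replicates; how many mice stand behind each is not given. Values are log2 expression, the mean over a gene's probesets, and differences are ECS minus sham on that scale.

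Synaptic vesicles fuse when a vesicle SNARE (Vamp) zips with target SNAREs (syntaxin and Snap25) on the plasma membrane. Unc13 proteins prepare this complex, complexins hold it, and synaptotagmins trigger fusion when calcium enters. Rims, Bsn and Pclo build the active zone where vesicles dock with Rab3. In the dentate gyrus the granule cells release glutamate and zinc from the large mossy fibre terminals, and the arrays measure transcripts in the dissected tissue, not proteins at the terminals.

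Medians of the arrays over all genes were 7.26 and 7.20 on ECS A and ECS B and 7.25 and 7.35 on sham A and sham B. Across genes, which are not independent replicates, the correlation was 0.993 within ECS and within sham and 0.987 to 0.990 between an ECS and a sham array. All 6 activity genes used to check the stimulation, Arc, Nptx2, Inhba, Homer1, Atf3 and Gadd45b, rose, with a median difference of 2.08 (limma, adjusted p under the threshold). Granule cell markers were present: Prox1, the granule cell transcription factor gene, read 9.60 and 9.53 after ECS and 9.29 and 9.40 after sham. Of 8 such markers, 5 were lower on both ECS arrays, among them Tdo2 and Dsp, which fell; the mean over the list was 8.82 and 8.88 after ECS against 9.46 and 9.56 after sham. Choroid plexus markers stood out on sham B: the mean of 8 genes was 6.04 and 5.75 after ECS and 5.95 (A) and 7.30 (B) after sham. All 4 measured blood markers had both ECS arrays above both sham arrays, with means of 10.2 and 9.91 after ECS and 9.03 and 9.57 after sham. Of these, Hba-a1 and Hba-a2 had identical values on every array, so they are not separate measurements, and both enter the means. Oligodendrocyte markers, 8 of 8 measured, read highest on ECS A, with means of 9.65 and 9.10 after ECS and 9.28 and 9.06 after sham. Means of interneuron markers (8 genes) were 9.05 and 9.15 after ECS and 9.13 and 9.03 after sham, and those of astrocyte markers (7 genes) 9.80 and 9.84 after ECS and 9.76 and 9.82 after sham. Means of 4 endothelial markers were 7.49 and 7.28 after ECS and 7.59 and 7.69 after sham, with Slco1a4 (-0.55) and Tek (-0.49) lower on both ECS arrays. Means of 6 microglial markers were 7.28 and 7.11 after ECS and 7.402 and 7.23 after sham, with P2ry12 (-0.64) and Tyrobp (-0.36) lower on both ECS arrays. Means of 3 mossy cell markers were 7.59 and 7.48 after ECS and 7.72 and 7.72 after sham, and those of 7 pyramidal cell markers 8.85 and 8.79 after ECS and 8.99 and 8.87 after sham. None of these endothelial, microglial, mossy cell and pyramidal genes passed the test. The part of these cell types in the results below was not tested. In such tissue, fewer cells of a type and less RNA per cell cannot be told apart.

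Among the release genes, 1 rose after ECS, none fell and 74 did not pass the test (limma on all genes with Benjamini-Hochberg adjustment and a threshold of 0.05). Of all genes, 0.5% were called higher and 0.194% lower. The gene that rose was Sv2c. At an unadjusted p under 0.05, 4 members were higher and 13 lower, against 6.39% and 10.5% of all genes. After centring the arrays on their medians this split was 10 higher and 7 lower among the members, against 10.7% and 6.2% of all genes. With quantile normalization it was 7 higher and 11 lower, against 1552 and 1648 of all 18010 genes. With cyclic loess it was also 7 and 11, against 1660 and 1533 of all genes. Both ECS arrays lay above both sham arrays for 15 members (20.0%) and below them for 31 (41.3%), against 18.7% and 30.7% of all genes; with centred arrays these counts were 23 and 20, against 28.8% and 20.3% of all genes. The median difference was -0.05 for the members and -0.04 for all genes, and 0.02 and 0.04 with centred arrays. With quantile normalization these medians were -0.058 and -0.007, and with cyclic loess -0.060 and -0.0004. Differences of up to 0.2 in either direction were found for 46 of 75 members (61.3%) and for 68.0% of all genes.

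**Figure D1:**
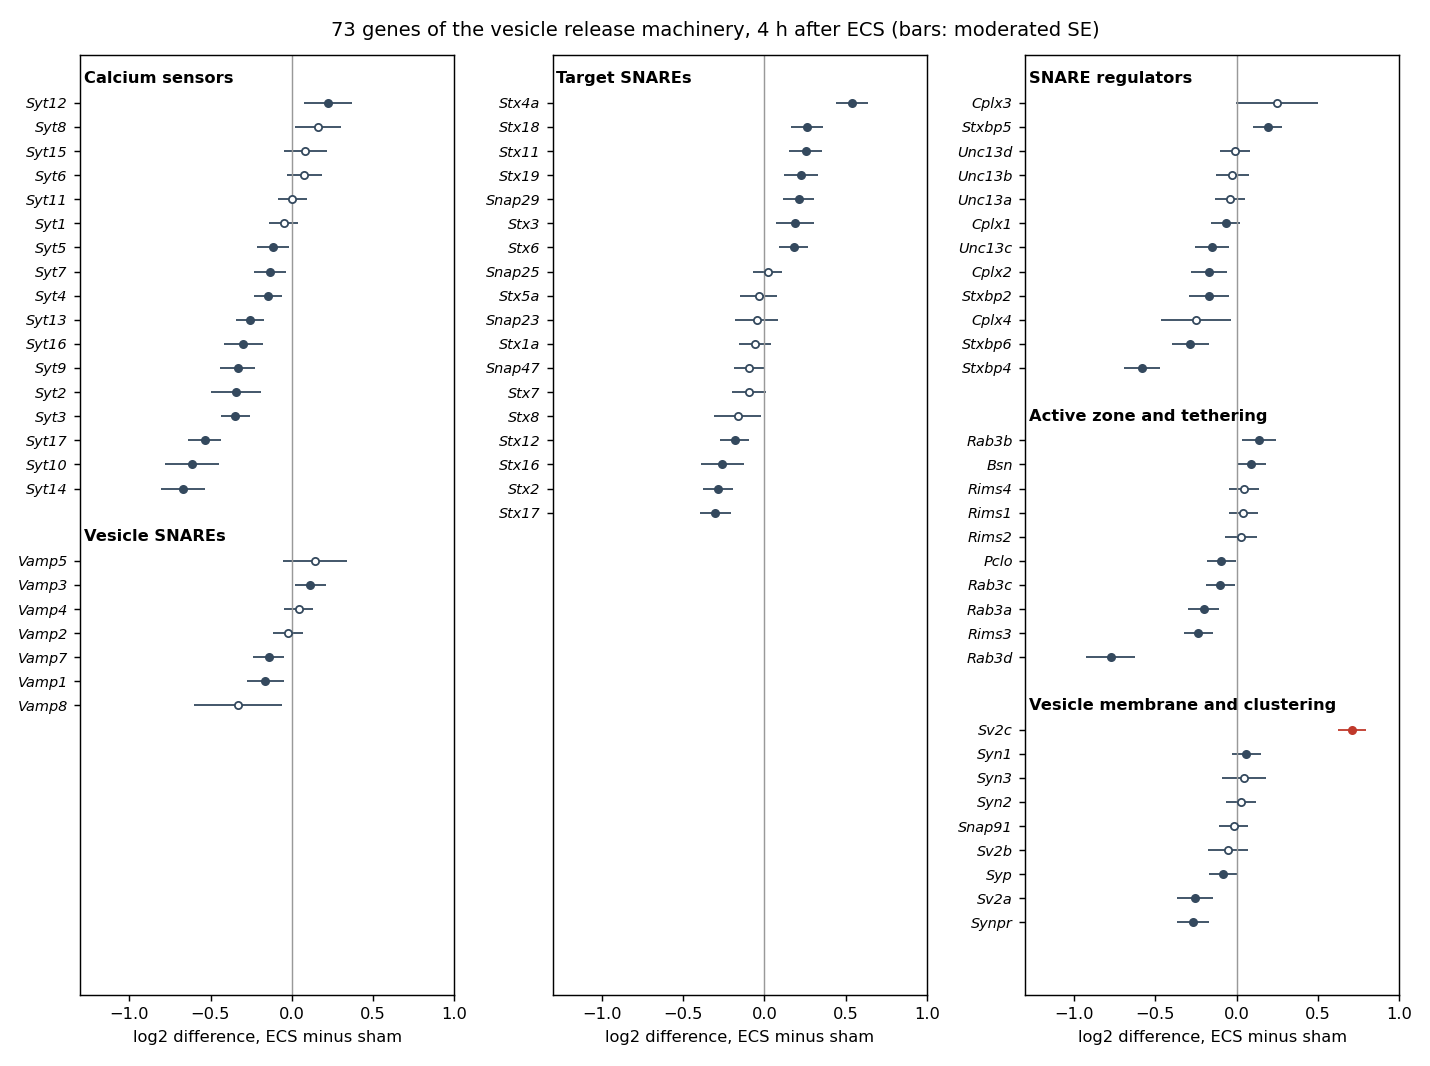
Log2 difference (ECS minus sham) of 73 of the 75 genes, grouped by role; bars are moderated SE, filled points mark genes whose groups do not overlap, open points those whose groups do, and red marks an adjusted p under 0.05. Sv2c, at 0.71, is the only red point, and differences run between -0.78 (Rab3d) and 0.71.

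**Figure D2:**
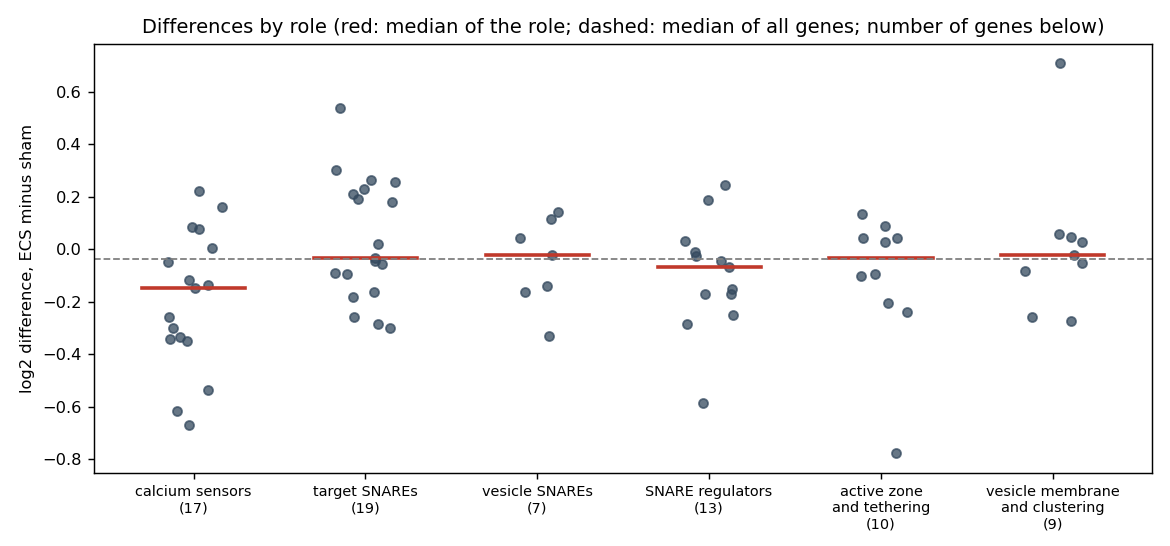
Log2 difference (ECS minus sham) of the 75 genes as points, with the median of each role in red and the median of all genes dashed. The 17 synaptotagmins have the lowest median, -0.15, and the other roles have medians between -0.07 and -0.02.

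The array number limits what could be called. Simulated data for ECS against sham on 18010 genes gave a recovery by limma of 1.2% at a 1.5-fold change, 52.8% at 2-fold and 87.8% at 3-fold. The simulated noise was independent between arrays and genes, and only a small part of the genes was changed. Shifts between arrays and differences in tissue content were not simulated, so recovery on the real arrays can differ. The 95% confidence interval of the difference, not adjusted for the number of genes, stayed within 1.5-fold in both directions for 59 of 75 members and within 2-fold for 71. The 4 members whose interval went past 2-fold were Rab3d, Syt10, Syt14 and Vamp8, all on the lower side.

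Sv2c encodes synaptic vesicle glycoprotein 2C, a transporter-like vesicle protein and the isoform with the most restricted expression in the brain. It read 9.39 and 9.37 after ECS and 8.67 and 8.67 after sham. The arrays of each group lay close together and the groups were far apart: Sv2c was 1.63-fold higher after ECS (0.71 ± 0.09 SE, 95% interval 0.489 to 0.925, limma adjusted p = 0.0499). This adjusted p was just under the threshold, and Sv2c was the last of the called genes, at rank 125 by p among all genes. Without any single array the difference stayed between 0.70 and 0.71, and the call was lost each time. Such fits leave a single array in a group. With the arrays centred on their medians the difference was 0.78 and the adjusted p 0.0552. Of the 14 Sv2c probesets, 13 were higher on both ECS arrays and none was lower on both, with differences between 0.13 and 0.96. Those of all genes were higher on both ECS arrays in 17.6% and lower in 25.6% of probesets.

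Its relatives did not pass. Sv2a, the isoform found in nearly all neurons and the binding site of the antiepileptic drug levetiracetam, read 10.07 and 9.84 after ECS and 10.23 and 10.20 after sham (-0.26 ± 0.11 SE, adjusted p = 0.324). Its groups did not overlap, and 8 of its 13 probesets were lower on both ECS arrays. Sv2b, the isoform typical of glutamatergic neurons, read 11.12 and 10.85 after ECS and 11.05 and 11.03 after sham (-0.05 ± 0.12 SE). Its ECS arrays lay on either side of the sham arrays. Within each array, the difference of Sv2c exceeded that of Sv2a by 0.97 and that of Sv2b by 0.76, with no overlap between groups. An exact two-sided permutation test on these ratios gave p = 0.333, the smallest that 2 arrays against 2 allow. For Sv2a this outcome was fixed in advance, since Sv2c was higher and Sv2a lower on both ECS arrays. For Sv2b it was fixed too. The gap between the Sv2c groups (9.37 against 8.67) was wider than the whole range of Sv2b (10.85 to 11.12). Neither ratio therefore adds support.

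Other vesicle membrane genes differed less. Synpr encodes synaptoporin, a synaptophysin relative that is abundant in mossy fibre terminals. It read 9.78 and 9.68 after ECS and 9.94 and 10.06 after sham (-0.27 ± 0.10 SE, adjusted p = 0.268). Syp, the synaptophysin gene, read 11.76 and 11.72 after ECS and 11.80 and 11.85 after sham (-0.08 ± 0.09 SE, adjusted p = 0.674). Both genes were lower on both ECS arrays. Snap91, the gene of the clathrin adaptor AP180, had -0.02 with overlapping groups. All 9 genes of this role had a median of -0.02.

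Synapsins tether vesicles in the reserve pool. Each synapsin gene holds a Timp gene, a metalloproteinase inhibitor gene, inside an intron, and the authors' list gives every Timp1, Timp4 and Timp3 probeset to Syn1, Syn2 and Syn3 as well. The row of Syn1 held 6 such probesets among 25, that of Syn2 5 among 19 and that of Syn3 13 among 20. As tabulated, Syn1 had 0.06 ± 0.09 SE, Syn2 0.03 ± 0.09 and Syn3 0.05 ± 0.13. The shared probesets and the others went different ways for Syn1 and Syn3. The 13 probesets shared with Timp3 averaged 8.85 and 8.82 after ECS and 8.26 and 8.74 after sham (0.34), and 10 of them were higher on both ECS arrays. The 16 Syn3 probesets listed for no other gene averaged 7.35 and 7.43 after ECS and 7.87 and 7.74 after sham (-0.41). Of those 16, 12 were lower on both ECS arrays and none was higher. Fitted without shared probesets on the tabulated row alone, Syn3 had -0.49 ± 0.09 SE (limma adjusted p = 0.102) and did not pass. This fit leaves out those 9 of the 16 probesets that only a second Syn3 transcript lists. Syn3 was chosen for naming after its values were seen. Syn1 without the Timp1 probesets had -0.09 ± 0.09 SE in place of 0.06, and those 6 probesets read 5.05 and 4.85 after ECS and 4.30 and 4.53 after sham (0.53). Syn2 without the Timp4 probesets had 0.02 ± 0.10 SE.

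**Figure D3:**
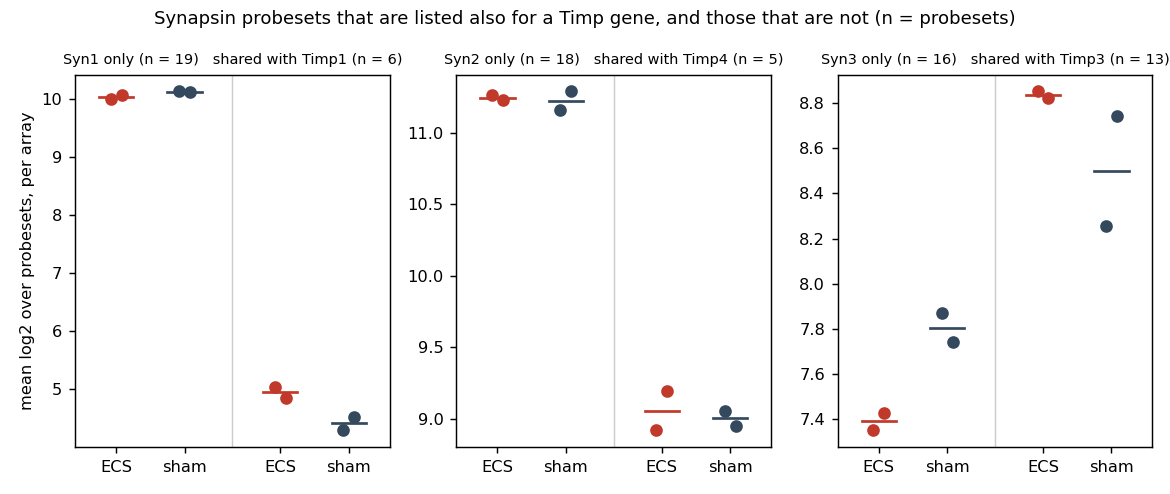
Mean log2 value over probesets on each array (points) and group means (lines), for probesets listed for the synapsin alone (left of each panel) and for those listed also for the nested Timp gene (right). For Syn3 the ECS arrays lie below the sham arrays at its own probesets (-0.41) and above them at the Timp3 probesets (0.34).

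The 17 synaptotagmins, the calcium sensors and their relatives, had the lowest median of any role, -0.15. None passed the test. On both ECS arrays 11 were lower and 1 was higher, against 30.7% and 18.7% of all genes, and 5 overlapped. At an unadjusted p under 0.05, 6 were lower and none higher, against 10.5% and 6.39% of all genes. With centred arrays 8 were lower on both ECS arrays, where 20.3% of all genes were, and the median was -0.07, where that of all genes was 0.04, with quantile normalization -0.14 and with cyclic loess -0.15. The mean of the granule cell marker list given above was lower on the ECS arrays too. Of its 8 genes 5 were lower on both ECS arrays, 1 (Prox1, 0.22) was higher and 2 overlapped. Tdo2 (-2.86) and Dsp (-1.37) had the largest differences in that list. The part of granule cells in the synaptotagmin values was not tested.

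Syt14, a synaptotagmin that does not bind calcium, read 8.36 and 8.10 after ECS and 9.005 and 8.795 after sham (1.59-fold lower, -0.67 ± 0.13 SE, adjusted p = 0.116). All 10 of its probesets were lower on both ECS arrays. Syt17, also called B/K, read 9.85 and 10.01 after ECS and 10.44 and 10.49 after sham (1.45-fold lower, -0.54 ± 0.10 SE, adjusted p = 0.104). All 7 of its probesets were lower on both ECS arrays as well. Syt10, a calcium sensor first described in rat brain as induced by seizures, read 8.57 and 9.03 after ECS and 9.39 and 9.43 after sham (-0.61 ± 0.17 SE, adjusted p = 0.185). Here the ECS arrays differed from each other: without ECS A the difference was -0.38 and without ECS B -0.85. Of 6 Syt10 probesets 5 were lower on both ECS arrays.

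Syt3, a high-affinity calcium sensor of the plasma membrane, read 8.10 and 8.07 after ECS and 8.40 and 8.48 after sham (-0.35 ± 0.09 SE, adjusted p = 0.172). Syt9 read 6.50 and 6.64 after ECS and 6.82 and 6.98 after sham (-0.33 ± 0.11 SE, adjusted p = 0.225). Syt2, a fast sensor typical of hindbrain neurons and some interneurons, read 6.89 and 6.82 after ECS and 7.403 and 6.99 after sham (-0.34 ± 0.15 SE, adjusted p = 0.341). The Syt2 difference leaned on sham A, without which it was -0.14. None of these groups overlapped.

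The sensors of most forebrain synapses differed little. Syt1, the fast sensor of synchronous release, read 12.83 and 12.76 after ECS and 12.87 and 12.82 after sham (-0.05 ± 0.09 SE, 95% interval -0.28 to 0.18). Its groups overlapped. Syt7, the sensor linked to asynchronous release and facilitation, had -0.13 ± 0.10 SE, and Syt4, described in rat as an immediate early gene after seizures, had -0.15 ± 0.09 SE. Both were lower on both ECS arrays. The other 8, Syt5, Syt6, Syt8, Syt11, Syt12, Syt13, Syt15 and Syt16, lay between -0.30 and 0.22. The Syt11 value rests on 1 probeset.

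Target SNAREs here are all syntaxins with Snap23, Snap25, Snap29 and Snap47, so Golgi and endosomal SNAREs count beside those of the plasma membrane. They were the largest role and the one with most genes higher on both ECS arrays: 8 of 19 were higher, 4 lower and 7 overlapped. Of all genes, 18.7% were higher and 30.7% lower. With centred arrays 9 were higher and 4 lower, against 28.8% and 20.3% of all genes. None passed, and the median was -0.03 (0.04 with centred arrays, 0.00 with quantile normalization and 0.01 with cyclic loess). Stx4a encodes syntaxin 4, a plasma membrane syntaxin that in neurons also serves exocytosis in dendritic spines. It read 8.07 and 7.98 after ECS and 7.43 and 7.54 after sham (1.45-fold, 0.54 ± 0.10 SE, 95% interval 0.295 to 0.782, adjusted p = 0.0996). The groups were well apart, and 8 of 10 probesets were higher on both ECS arrays. Stx1a, a syntaxin of synaptic release, overlapped between groups, at 9.07 and 9.19 after ECS and 9.13 and 9.24 after sham (-0.06 ± 0.10 SE).

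Snap25, the neuronal partner of syntaxin 1, read 12.27 and 12.20 after ECS and 12.23 and 12.19 after sham (0.02 ± 0.09 SE, 95% interval -0.20 to 0.25). Its groups overlapped, and of 13 probesets 1 was higher and 2 were lower on both ECS arrays. Stx17, a syntaxin of autophagosomes, read 8.52 and 8.40 after ECS and 8.74 and 8.78 after sham (-0.30 ± 0.09 SE, adjusted p = 0.218). All 22 of its probesets had a negative difference, 13 of them with both ECS arrays below both sham arrays. The other 14, Snap23, Snap29, Snap47, Stx2, Stx3, Stx5a, Stx6, Stx7, Stx8, Stx11, Stx12, Stx16, Stx18 and Stx19, lay between -0.29 and 0.26. Both Stx19 probesets are also listed for Arl13b, and 1 of 7 Snap29 probesets for Pi4ka.

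**Figure D4:**
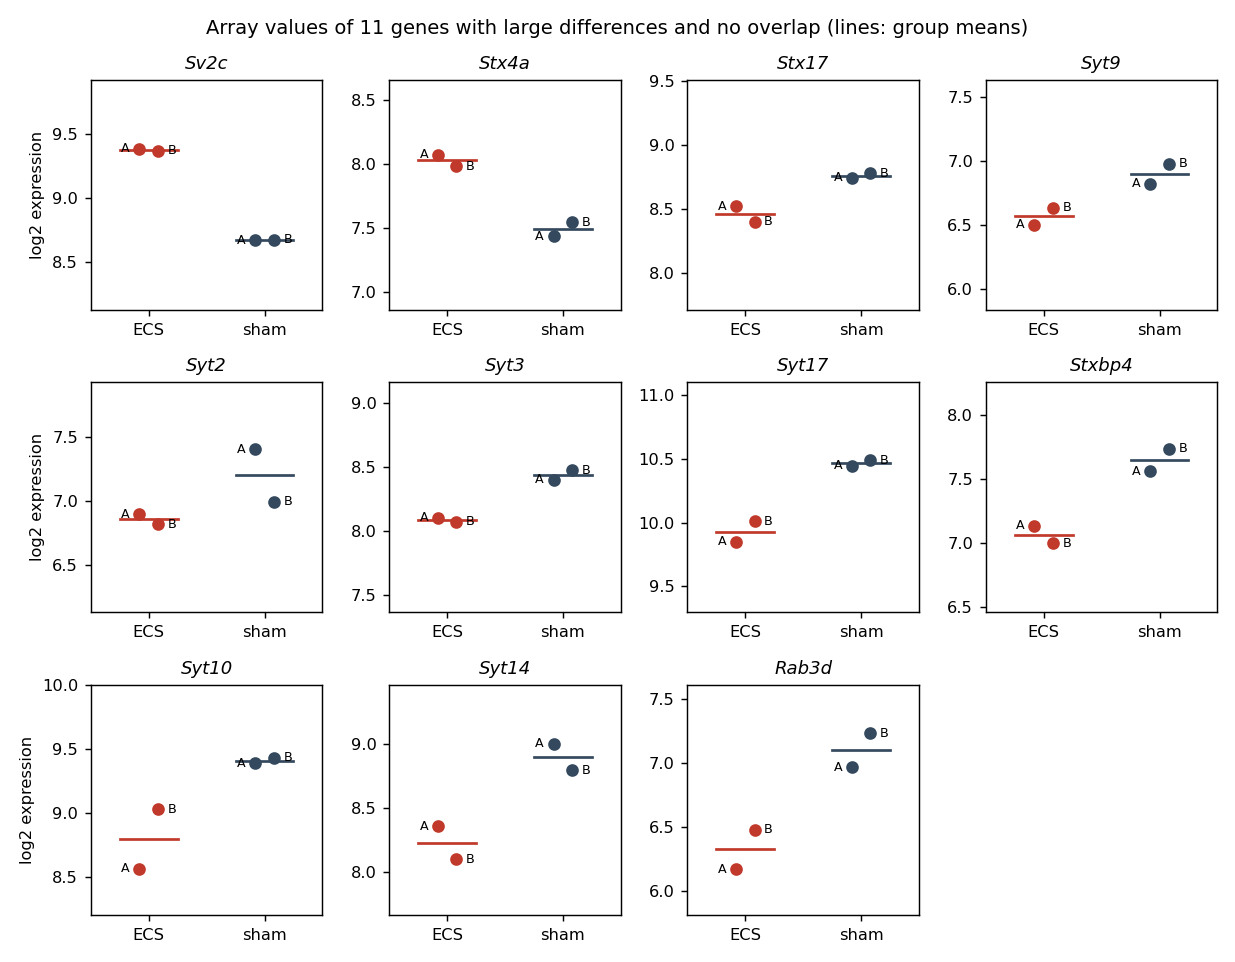
Log2 expression on each array (points A and B) and group means (lines) for 11 genes with large differences whose groups do not overlap; every panel spans the same height. The ECS arrays lie above the sham arrays for Sv2c and Stx4a and below them for the other 9 genes, with the widest spread within ECS for Syt10.

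Vesicle SNAREs had a median of -0.02 over 7 genes, and none passed. Vamp2, the SNARE of most forebrain vesicles, read 10.83 and 10.82 after ECS and 10.79 and 10.90 after sham (-0.02 ± 0.09 SE, 95% interval -0.26 to 0.21). Vamp1 read 9.13 and 9.21 after ECS and 9.45 and 9.22 after sham (-0.16 ± 0.11 SE, adjusted p = 0.514). The ECS arrays of Vamp2 lay between the sham arrays, and those of Vamp1 just below sham B. Vamp3, Vamp4, Vamp5, Vamp7 and Vamp8, which serve recycling, lysosomal or secretory membranes, lay between -0.33 and 0.14.

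SNARE regulators had a median of -0.07 over 13 genes, and none passed. This median was 0.00 with centred arrays, -0.08 with quantile normalization and -0.07 with cyclic loess. Stxbp4, also called Synip, is a binding partner of syntaxin 4. It read 7.13 and 6.996 after ECS and 7.56 and 7.73 after sham (1.498-fold lower, -0.58 ± 0.11 SE, 95% interval -0.86 to -0.31, adjusted p = 0.104). Of its 18 probesets, 13 were lower on both ECS arrays and none was higher. Within arrays, the difference of Stx4a exceeded that of Stxbp4 by 1.12 with no overlap between groups (exact permutation p = 0.333, the smallest possible). Each gene's groups already lay apart, in opposite directions, so this outcome was fixed in advance and adds no support. Stxbp5 encodes tomosyn, an inhibitor of SNARE assembly, and was chosen for naming after its values were seen. It read 10.48 and 10.42 after ECS and 10.25 and 10.28 after sham (0.19 ± 0.09 SE, adjusted p = 0.353), with 23 of 33 probesets higher on both ECS arrays and none lower.

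Complexins and Unc13 proteins differed less. Cplx1 read 10.62 and 10.53 after ECS and 10.64 and 10.64 after sham (-0.07 ± 0.09 SE), and Cplx2, the main complexin of excitatory forebrain neurons, 10.20 and 9.98 after ECS and 10.25 and 10.27 after sham (-0.17 ± 0.11 SE, adjusted p = 0.485). Both complexins were lower on both ECS arrays. Unc13a, or Munc13-1, the priming factor of most glutamatergic synapses, read 9.74 and 9.66 after ECS and 9.79 and 9.70 after sham (-0.04 ± 0.09 SE). Cplx3, Cplx4, Stxbp2, Stxbp6, Unc13b, Unc13c and Unc13d lay between -0.28 and 0.25.

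Active zone and tethering genes had a median of -0.03 over 10 genes, and none passed. This median was 0.04 with centred arrays, -0.04 with quantile normalization and -0.01 with cyclic loess. Rab3d is the Rab3 isoform known from regulated secretion in exocrine and endocrine cells. It had the largest difference of all members, reading 6.17 and 6.48 after ECS and 6.96 and 7.23 after sham (1.71-fold lower, -0.78 ± 0.15 SE, 95% interval -1.16 to -0.39, adjusted p = 0.112). The groups did not overlap, 3 of its 5 probesets were lower on both ECS arrays, and the difference lay between -0.93 and -0.62 with any 1 array left out. Rab3a, the main Rab3 of synaptic vesicles, read 9.78 and 9.86 after ECS and 9.97 and 10.07 after sham (-0.20 ± 0.10 SE, adjusted p = 0.354).

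Rims1, Bsn and Pclo, as tabulated, differed by less than 0.1. Rims1 read 10.44 and 10.39 after ECS and 10.35 and 10.40 after sham (0.04 ± 0.09 SE). Bsn, or bassoon, read 9.27 and 9.29 after ECS and 9.22 and 9.15 after sham (0.09 ± 0.09 SE), with 13 of 40 probesets higher and 2 lower on both ECS arrays. Pclo, or piccolo, read 9.51 and 9.45 after ECS and 9.59 and 9.56 after sham (-0.09 ± 0.09 SE). The authors list a second Pclo transcript with 14 further probesets. Those averaged 6.55 and 6.50 after ECS and 6.82 and 6.86 after sham (-0.32), with 9 of 14 lower on both ECS arrays, against 11 of the 39 probesets that both transcripts share. Rab3b, Rab3c, Rims2, Rims3 and Rims4 lay between -0.24 and 0.13.

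A panel of 23 isoforms that serve release in neurons joins these roles. Apart from Sv2c, the 95% interval of each of its 22 other genes lay within 1.5-fold in both directions, and the lowest difference was -0.27 (Synpr). The panel median was -0.05, or 0.02 with centred arrays and -0.06 with quantile normalization or cyclic loess.

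Differences were also examined at single probesets. The 75 genes have 1075 probesets, of which 178 were higher and 300 lower on both ECS arrays, near the 17.6% and 25.6% of all probesets. At the probeset level limma called none of them, and 0 of all 229712 probesets (0%). At an unadjusted p under 0.05, 38 member probesets were higher and 74 lower, against 4.25% and 5.92% of all probesets. With trend and robust options in eBayes, which estimate the spread by brightness, limma called 14 member probesets higher and 11 lower, against 1.06% and 0.805% of all; 11 of the 14 belong to Sv2c and 4 of the 11 to Syt17. Probesets of a gene share its transcripts and are not replicates.

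Among the 65 members with at least 5 probesets, 2 members, Sv2c among them, had at least 90% of them higher on both ECS arrays, and Syt14 and Syt17 had at least 90% lower. In the whole table this held for 1.53% and 1.42% of 14799 genes. At 50% of probesets the counts were 7 members higher and 20 lower, against 9.57% and 16.3% of those genes. These limits were set after the values were seen.

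**Figure D5:**
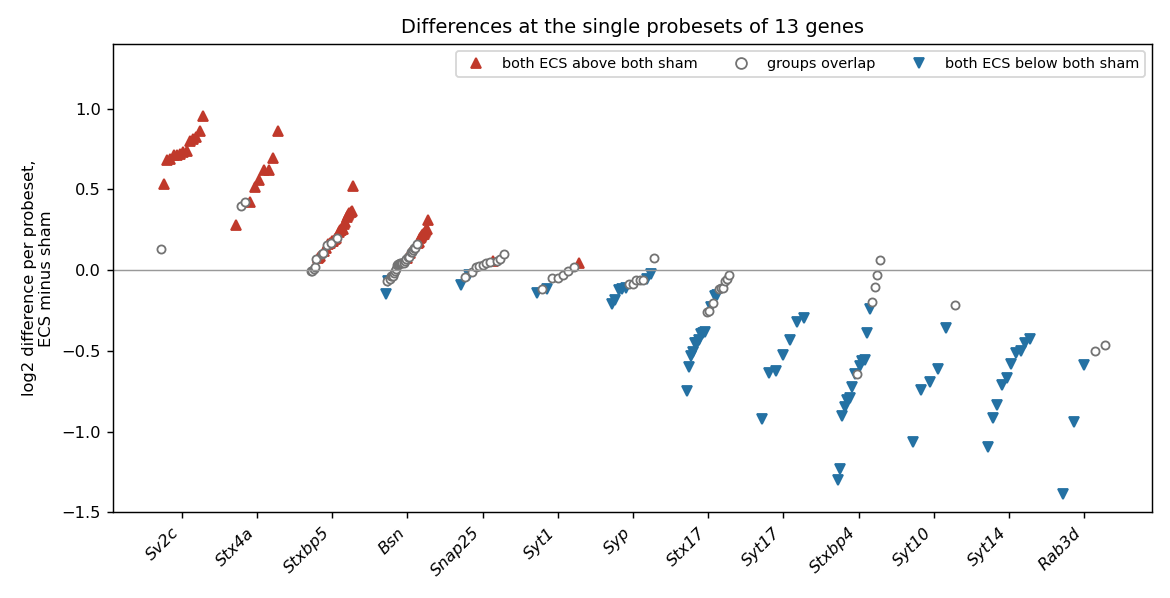
Log2 difference (ECS minus sham) at each probeset of 13 genes; red triangles have both ECS arrays above both sham arrays, blue triangles below, and open circles overlap. Sv2c has 13 of 14 red and Syt14 10 of 10 blue, while Snap25, Syt1 and Syp stay near 0.

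More members were called with a filter on dim genes or with another variance setting. Without the dimmest 25% of genes, where limma called 1.79% of genes higher and 1.6% lower, Sv2c and Stx4a rose and Stxbp4 and Syt17 fell, with adjusted p between 0.0179 and 0.0482. With trend and robust options, where 2.03% were called higher and 1.95% lower, Rab3d and Syt14 fell as well, and the adjusted p of Sv2c was 0.00427.

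Promoters are shown for the members with the largest differences in each direction that have an entry in the RefSeq promoter table, 250 bases before and 50 after the gene's start in GRCm38.p6. Of the 75 members, 58 matched an entry, and Syt17 was among those that did not. They are printed 5′ to 3′ along the gene. Capitals mark TGACG or its reverse complement CGTCA, the half-site of the cAMP response element bound by CREB family factors. Sv2c lies at chr13:96132528-96132827 (minus strand), Stx4a at chr7:127841558-127841857 (plus strand), Syt14 at chr1:193035726-193036025 (minus strand) and Rab3d at chr9:21918134-21918433 (minus strand).
Sv2c: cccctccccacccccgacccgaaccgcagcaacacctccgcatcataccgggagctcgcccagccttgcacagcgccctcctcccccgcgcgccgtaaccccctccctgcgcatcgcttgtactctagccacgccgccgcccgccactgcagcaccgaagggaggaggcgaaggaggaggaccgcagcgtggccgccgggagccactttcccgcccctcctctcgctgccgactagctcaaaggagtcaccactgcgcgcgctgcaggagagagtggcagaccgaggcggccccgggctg
Stx4a: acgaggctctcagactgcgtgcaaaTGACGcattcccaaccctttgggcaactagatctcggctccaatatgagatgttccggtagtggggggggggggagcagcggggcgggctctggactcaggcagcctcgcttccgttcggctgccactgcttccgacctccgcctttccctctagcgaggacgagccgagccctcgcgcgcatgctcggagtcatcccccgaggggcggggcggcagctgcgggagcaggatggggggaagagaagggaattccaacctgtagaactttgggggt
Syt14: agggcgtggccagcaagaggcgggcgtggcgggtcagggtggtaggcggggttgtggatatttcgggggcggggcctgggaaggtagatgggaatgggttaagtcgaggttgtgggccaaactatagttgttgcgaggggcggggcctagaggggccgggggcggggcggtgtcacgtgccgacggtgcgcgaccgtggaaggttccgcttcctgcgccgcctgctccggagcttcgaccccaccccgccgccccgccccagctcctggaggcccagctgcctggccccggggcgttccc
Rab3d: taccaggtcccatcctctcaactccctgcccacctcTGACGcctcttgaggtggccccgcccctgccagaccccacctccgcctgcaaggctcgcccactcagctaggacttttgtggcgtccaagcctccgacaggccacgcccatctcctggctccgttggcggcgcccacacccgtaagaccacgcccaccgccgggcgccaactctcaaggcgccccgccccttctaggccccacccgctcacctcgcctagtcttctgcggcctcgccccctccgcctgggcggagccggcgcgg

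The half-site was found in 1 copy each, at position -225 from the start in Stx4a and at -214 in Rab3d; Sv2c and Syt14 held none in this window. On both strands, 20.8% of all 32851 promoters in the table and 21.3% of the members' promoters held it. The full element TGACGTCA, which contains the half-site, was in 1.79% of all promoters and, among members, in that of Syn1 alone. The AP-1 site TGANTCA was in 7.81% of all promoters and 4.0% of the members' promoters. The EGR site GCGNGGGCG was in 5.55% and 10.7%, and in none of the 4 printed here. A match describes letters in this window and is not a measured site.

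Other genes act in the same vesicle cycle. None of 31 other release and active zone genes passed, and their median was -0.02. On both ECS arrays 7 were higher and 11 lower, against 18.7% and 30.7% of all genes. Rimbp2, which links Rims to calcium channels, had the largest positive difference (0.45 ± 0.09 SE, adjusted p = 0.113) and Rab27b, a Rab of secretory granules, the largest negative one (-0.46 ± 0.19 SE, adjusted p = 0.315). Of 17 measured vesicle transporter, proton pump and tetraspan genes none passed, with a median of -0.05. Slc30a3, which loads zinc into mossy fibre vesicles, read 9.70 and 9.76 after ECS and 9.24 and 9.26 after sham (0.48 ± 0.09 SE, adjusted p = 0.104), and Slc17a6, a vesicular glutamate transporter gene, had -0.34 ± 0.40 SE with overlapping groups.

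Among 27 endocytosis genes, which retrieve vesicle membrane after fusion, 1 rose and 26 did not pass, with a median of 0.01. Cltb, the gene of clathrin light chain B, read 10.76 and 10.82 after ECS and 9.86 and 9.94 after sham, 1.85-fold higher (0.89 ± 0.09 SE, limma adjusted p = 0.0375). The Cltb groups were far apart relative to the spread within them. Ston1, an adaptor gene of the stonin family, had the largest negative difference (-0.56 ± 0.15 SE, adjusted p = 0.184).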

How the data were processed

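The deposited gene table holds log2 values per RefSeq transcript, and the series' value table holds log2 values per probeset; per the submitters' processing notes RMA and the oligo package were used, and versions and genome build are not given in the sources used here. All 22485 transcript rows with a probeset equalled the mean of their probesets within 1e-06 on 1 labelled sample each: column A matched replicate 1 and column B replicate 2 of its group. Rows without a probeset, 3621 listed at 0, were left out. RefSeq identifiers were matched without versions to GRCm38.p6 (24932 of 25635), and the row with the highest mean stood for a gene. Probesets shared between genes are given beside the members that have them.

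For ECS against sham, limma 3.58.1 (R 4.3.3) was run as a two-sided test through lmFit and eBayes without block or filter, with 2 residual and 3.23 prior degrees of freedom, and adjusted over all 18010 genes. The same fit was run on 229712 probesets. It was tested on simulated data. Exact permutation tests used scipy 1.17.1. For arrays, their number limits the precision.

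The members, roles and lists were chosen with earlier results of these data known. Named genes are every member past the threshold, the 12 largest differences without overlap, a panel of 23 neuronal isoforms, and for other lists those called and the extreme in each direction. Alternatives were each array left out, other scalings, filters, rows, variance settings, thresholds and a replicate block. Slc18a3 was not analysed here, and 2 members that enter the counts are not reported here.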

Additional observations from a re-analysis of the deposited data

How the results depend on the processing

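Against 1 member called, limma called 4 without the dimmest 25% of genes, 6 with trend and robust eBayes, 2 at an adjusted p under 0.10, and 0 with median centring. Leaving out 1 array in turn kept the Sv2c difference between 0.699 and 0.715 and lost its call. The single remaining array was taken to vary as the opposite group does. With the labelled numbers as a replicate block on values rebuilt from probesets, 0 members were called, and 26 genes higher and 6 lower overall. Deviations of same-numbered samples correlated at -0.203 across genes. With 2 arrays per group this is a single value over genes that are not independent. It cannot settle whether the numbers pair the samples. A crossed pairing, added after seeing the data, also called 0 members, and 106 genes higher and 48 lower. The members' median of -0.05 was 0.018 after median centring, -0.058 with quantile normalization and -0.060 with cyclic loess. It was -0.076 without shared probesets and -0.0846 to -0.0308 with an array left out. At the probeset level, trend and robust eBayes called 25 member probesets against 0. Over 35 members and 14 settings, 457 of 490 results kept direction and side of the threshold, 7 lost a call (all Sv2c), 8 gained one and 18 changed direction. The filter, variance and block settings and the values rebuilt from probesets keep each difference as it is, so direction could not change there. Other rows or unshared probesets also leave most members unchanged. The count of kept results is therefore no measure of robustness. Median centring turned Syt1 to 0.0221, Stx1a to 0.0143, Vamp2 to 0.0485, Cplx1 to 0.0037, Unc13a to 0.0288 and Sv2b to 0.018. With an array left out, Snap25 ran from -0.0137 to 0.0559, Stx1a from -0.116 to 0.00038, Vamp2 from -0.078 to 0.0307, Unc13a from -0.0908 to 0.0040, Syn2 from -0.0108 to 0.0627, Sv2b from -0.191 to 0.0825 and Syn3 from -0.121 to 0.213. Cyclic loess, added after seeing the data, gave Snap25 -0.0032. Without shared probesets Syn1 had -0.091 and Syn3 -0.493, since Timp probesets are left out; with the mean of rows Syn3 had -0.0162. For the other changes the cause was not tested. Dim genes are least certain, and signal over background was not measured.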
